A study of Mus musculus with 12 samples.

Results

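Scleral miRNA levels were compared between form-deprived (myopic) and fellow control eyes of C57BL/6J mice. The miRNAs described are those detected on at least 1 of the 6 sclera arrays, 328 of the 443 detected anywhere in the series and of the 696 miRNA names on the array. Of these, 266 were detected on all 6 sclera arrays and 62 on some of them. A frosted diffuser was fixed over the right eye under ketamine and xylazine anesthesia at P24 and worn for 10 days, and both eyes were taken at P34. The myopic sclera group held the right eyes and the control sclera group the untreated left eyes of the same deprived mice, so the controls shared the anesthesia, the surgery day and any systemic effect of monocular deprivation. Each group had 3 arrays, and each array carried total RNA pooled from 3 scleras, although the sample labels give a mouse identifier per array. The other 6 arrays held retinas of both eyes and are used here only where named.

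MicroRNAs are short RNAs that guide Argonaute proteins to messenger RNAs, mainly through a short seed near their 5′ end, and thereby lower the stability or translation of the messages they pair with. The sclera is the collagen-rich outer coat of the eye, made by fibroblasts, and it is remodeled as the eye elongates in myopia. Families such as miR-29, which targets collagen messages, and miR-199a/214, which is expressed in mesenchymal cells, are therefore of interest in this tissue. The question of the comparison was whether miRNA levels in this coat differ between an eye that is becoming myopic and its fellow eye.

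Mature sequences are shown for miRNAs with the smallest unadjusted p-values, for family members that the results set beside them, and for some of the brightest signals, because shared letters bear on how far an array probe can separate them. Of the 328 miRNAs, 249 had a mature sequence under exactly the same name in RefSeq (GRCm38.p6). Capitals mark the seed, bases 2 to 8 from the 5′ end. The first pair below lies in the Dlk1-Dio3 cluster, the second pair is pigment-cell-enriched, the next 3 come from miR-181 hairpins, miR-26a-5p is among the smallest p-values, and the last 3 belong to the brightest signals in sclera.
miR-154-5p: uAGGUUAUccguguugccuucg
miR-379-5p: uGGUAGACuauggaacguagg
miR-204-5p: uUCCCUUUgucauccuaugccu
miR-211-5p: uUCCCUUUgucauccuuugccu
miR-181a-1-3p: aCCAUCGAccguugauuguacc
miR-181a-5p: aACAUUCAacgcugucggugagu
miR-181b-5p: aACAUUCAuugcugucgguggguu
miR-26a-5p: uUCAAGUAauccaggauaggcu
let-7a-5p: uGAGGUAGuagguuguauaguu
let-7c-5p: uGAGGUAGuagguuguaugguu
miR-199a-3p: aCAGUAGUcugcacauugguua
The 2 pigment-cell miRNAs share the seed UCCCUUU and differ at 1 of 22 positions. miR-211-5p lies at chr7:64205831-64205852 (plus strand) inside the span of Trpm1, a melanocyte and bipolar-cell channel gene, and miR-204-5p at chr19:22750610-22750631 (plus strand) inside Trpm3. miR-379-5p (chr12:109709065-109709085) and miR-154-5p (chr12:109738438-109738459) are both on the plus strand of the imprinted region of chromosome 12. miR-181a-1-3p lies at chr1:137966508-137966529 (plus strand) and is the opposite arm of the hairpin that gives miR-181a-5p, so its seed CCAUCGA differs from the ACAUUCA seed shared by miR-181a, b, c and d. let-7a-5p and let-7c-5p differ at 1 of 22 positions, and both carry the seed GAGGUAG found in 9 of the miRNAs described.

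The label of the tissue was checked against markers before the comparison. Between control sclera and control retina, 102 of 443 miRNAs (23.0%) were higher in sclera and 122 (27.5%) lower by limma (adjusted p under 0.05 and at least 2-fold). Of 18 detected members of the mesenchymal list, 10 were higher and 3 lower in sclera. Among the 10 were miR-199a-3p with a difference of 7.90 log2 units and miR-199a-5p with 7.78. For miR-29b-3p and miR-29c-3p, sclera minus retina was -1.78 and -2.87 log2 units. Of 13 retinal and neuronal miRNAs detected in sclera, 12 were lower there than in retina, but they were not absent. miR-124-3p, a neuronal miRNA, gave 12.54, 12.54 and 9.60 log2 units in control and 12.32, 11.13 and 12.10 in myopic sclera. Skeletal muscle miRNAs were also present, 5 of 5 being higher in sclera than in retina, and so were 7 members of the surface epithelium and lens list. The list members counted here were detected in sclera, whereas the 443 include 115 miRNAs detected in retina and not in sclera.

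Control pool 3 stood apart from the other sclera arrays. It had 274 detected miRNAs against 290 to 317 on the other 5 arrays, and a 75th percentile of signal of 276 against 436 to 803. Its median correlation with the other sclera arrays was 0.961, whereas those of the others were 0.981 to 0.991. There were 21 miRNAs missing on this array and present on the other 5. It was the highest of the 6 arrays for 120 and the lowest for 76 of the 266 miRNAs detected on all 6. Values without it stand beside the results that it moved most. The myopic sclera arrays also lay at the same place on each of the 3 slides, as did those of every other group, so array place and group cannot be told apart.

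Markers of neighbouring tissues varied between the pools of a group. The summed signal of the retinal and neuronal list, scaled to a common 75th percentile, was 14725, 15028 and 3349 in control pools 1 to 3 and 10952, 6196 and 12664 in the myopic pools. That of the surface epithelium and lens list was 9631, 2994 and 2333 in control and 1204, 5938 and 6779 in myopic sclera. The muscle list summed to 3606, 5095 and 4047 in control and 6414, 5320 and 3376 in myopic sclera. In each of these 3 lists the groups overlapped, and control pool 3 had the least retinal signal. The sums of the mesenchymal, endothelial and erythroid lists did not overlap between the groups and are given with those miRNAs. Neither did those of the TGF-β and fibrosis-linked list and of the miR-181 family, described below. Of the 328 single miRNAs, 35 did not overlap on this scale. The scaled sum over all 328 miRNAs was 613480 in control pool 3 and from 402710 to 458020 in the other pools. Sums of that pool are therefore not directly comparable with the rest. In pooled tissue, fewer cells of a type and less RNA per cell cannot be told apart.

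**Figure D1:**
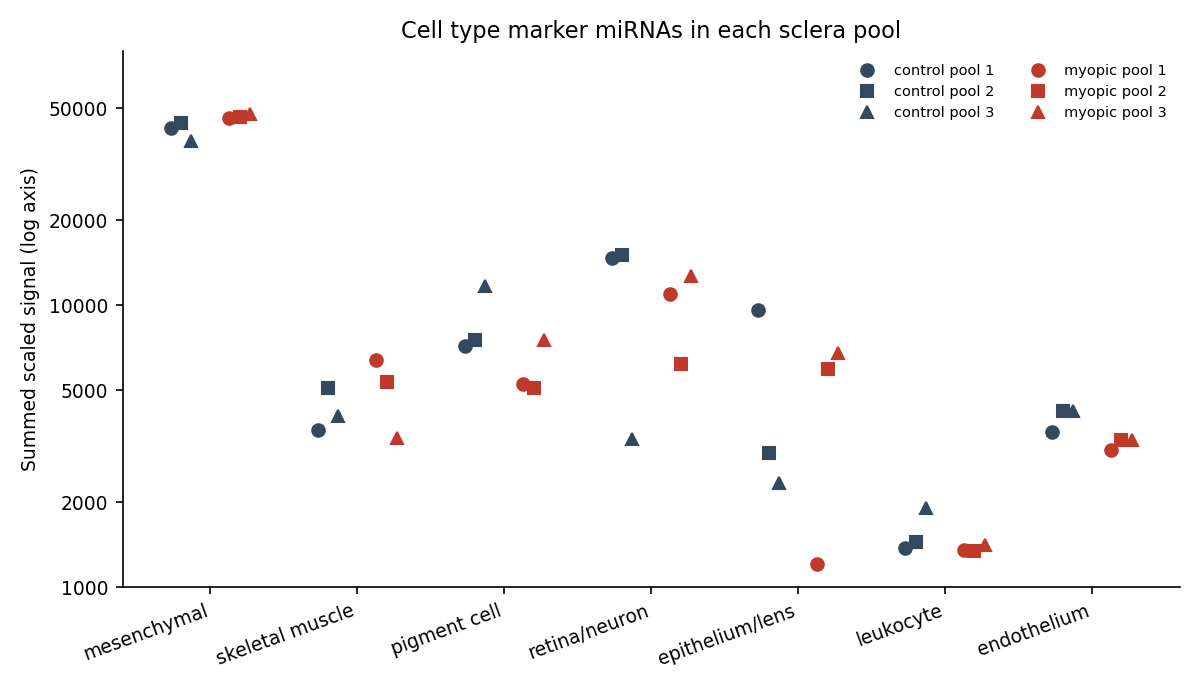
Summed signal of cell type marker miRNAs in each of the 6 sclera pools, on a log axis, after scaling every array to a common 75th percentile; blue symbols are control and red symbols myopic pools, with the shape giving the pool number. The retinal and epithelial lists spread most, from 3349 to 15028 and from 1204 to 9631, with both groups overlapping.

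No miRNA was called different between myopic and control sclera. Of 328 miRNAs tested with limma, 0 (0.00%) reached an adjusted p under 0.05 with a 2-fold change, and the lowest adjusted p was 0.879. At an unadjusted limma p under 0.05 there were 7 (2.13%), 3 of them higher (0.915%) and 4 lower (1.22%) in myopic sclera, and none of the 7 reached 2-fold. The changes of the 266 miRNAs detected on all 6 arrays had a median of 0.00 log2 units and ran from -0.73 to 0.63, with 136 (51.1%) above 0. Over all 328, the mean was higher in myopic sclera for 168 (51.2%) and lower for 159 (48.5%), and the same-numbered pairs were all 3 higher for 36 (11.0%) and all 3 lower for 32 (9.76%). Without control pool 3, the number at an unadjusted p under 0.05 was 29 (8.84%), of which 21 (6.40%) were higher and 8 (2.44%) lower, and 1 miRNA was called, miR-592-5p, which is described with the weak signals below.

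**Figure D2:**
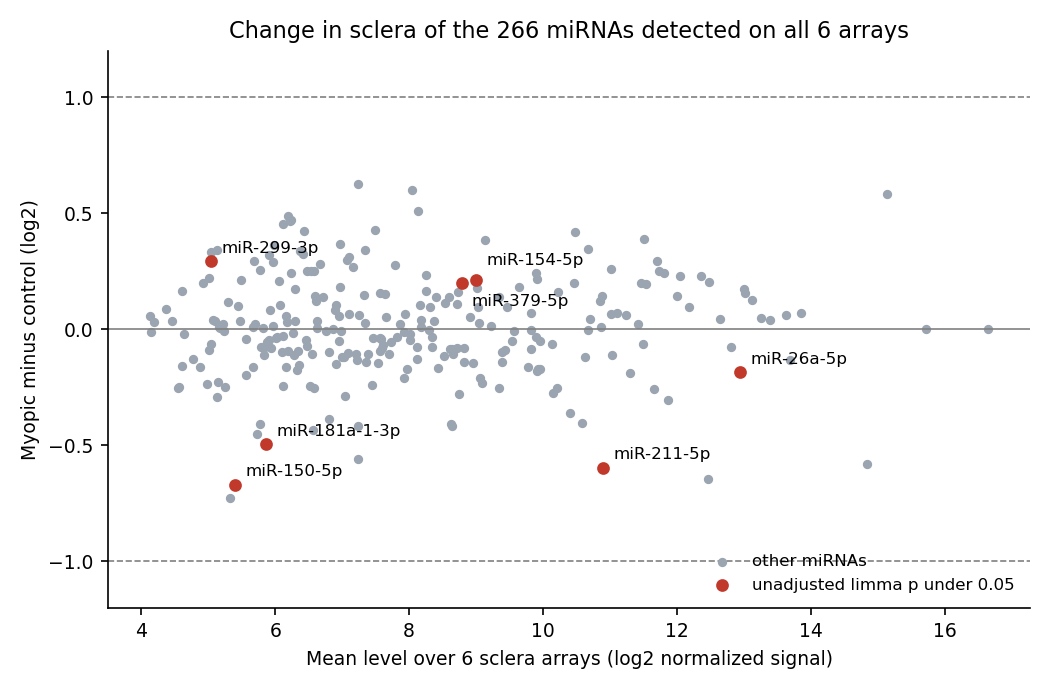
Change in sclera (myopic minus control, log2) against mean level (log2 normalized signal) for the 266 miRNAs detected on all 6 arrays; dashed lines mark 2-fold, and red points are the 7 with an unadjusted limma p under 0.05. Every point lies between -0.73 and 0.63.

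The intervals show how large a change these pools left room for. The 95% interval of the change lay wholly inside 2-fold in both directions for 205 of the 266 miRNAs (77.1%), and it reached 2-fold for the other 61. The median standard error was 0.20 log2 units, and the median interval extended 0.51 log2 units to either side. Among the brightest miRNAs, miR-22-3p had a change of 0.16 log2 units with an interval from -0.15 to 0.46. The mesenchymal miR-199a-3p gave 13.59, 13.59 and 13.59 in control and 13.69, 13.69 and 13.59 in myopic sclera. Its change was 0.06 log2 units, and 0.23 with arrays scaled to a common 75th percentile instead. At the other extreme, miR-124-3p had a standard error of 0.95 log2 units, so that a change of several-fold would not have been detectable.

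**Figure D3:**
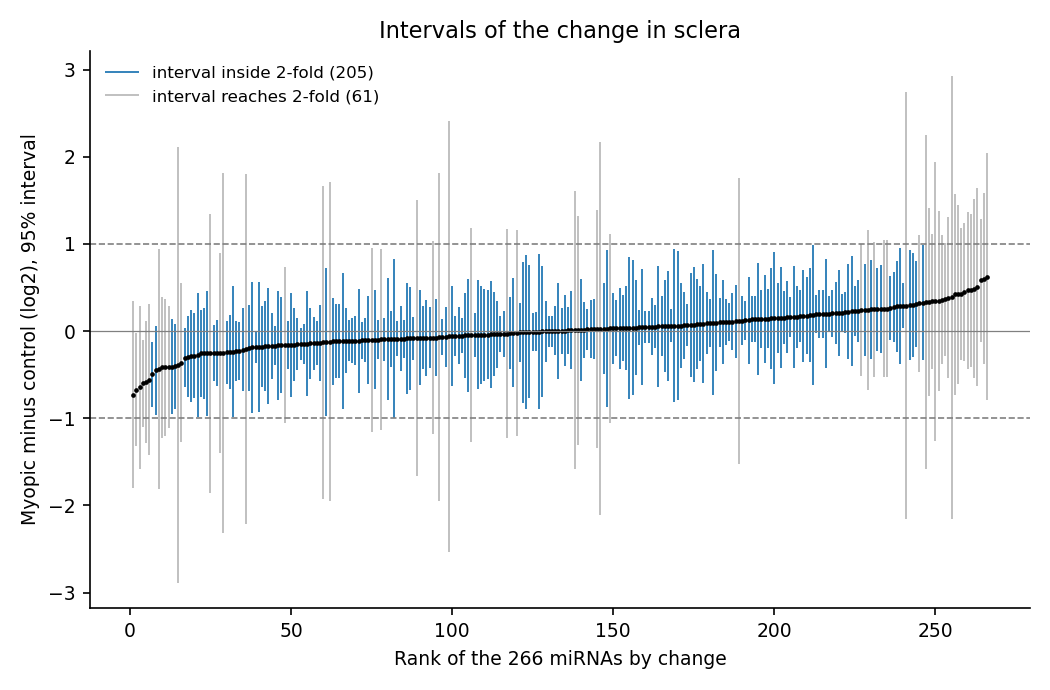
Change in sclera (myopic minus control, log2) with its 95% limma interval for the 266 miRNAs detected on all 6 arrays, ordered by change. Blue intervals, 205 in number, lie inside the dashed 2-fold lines, and 61 grey ones reach them.

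The 3 miRNAs that were higher at an unadjusted p under 0.05 all belong to the imprinted Dlk1-Dio3 cluster, whose miRNAs are expressed from the maternal chromosome and are abundant in embryonic and mesenchymal tissue. miR-299-3p gave 5.00, 4.89 and 4.79 log2 units in control pools 1 to 3 and 5.21, 5.26 and 5.09 in the myopic pools. Its groups did not overlap, and the change was 0.29 ± 0.10 (SE, n = 3 pools a group; 95% interval 0.04 to 0.55, limma adjusted p = 0.879). miR-154-5p gave 8.90, 8.90 and 8.87 in control and 9.13, 9.18 and 9.01 in myopic sclera, a change of 0.21 ± 0.08 (SE; 95% interval 0.00 to 0.43, limma adjusted p = 0.879). For miR-379-5p, the values were 8.65, 8.73 and 8.68 in control and 8.90, 8.92 and 8.83 in myopic sclera, with a change of 0.20 ± 0.08 (SE; 95% interval 0.00 to 0.40, limma adjusted p = 0.879). All 3 were higher in each of the 3 same-numbered pairs, with mean folds of 1.15 to 1.23, and had changes of 0.24, 0.20 and 0.20 log2 units without control pool 3. With arrays scaled to a common 75th percentile instead, the changes of miR-299-3p, miR-154-5p and miR-379-5p were 0.31, 0.08 and 0.13 log2 units.

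Of the cluster's 71 names on the array, 44 were detected in sclera, 36 of them on all 6 arrays. Of the 36, 26 were higher and 10 lower in the mean of the myopic pools, where 51.1% of all miRNAs detected on all 6 arrays were higher. The median change over the 36 was 0.19 log2 units against 0.00 over all 266. It was 0.22, 0.08 and 0.15 in pairs 1, 2 and 3, where all 266 had medians of 0.09, 0.00 and -0.10. None of the 44 was called, and 3 passed an unadjusted p under 0.05. Without control pool 3 the median was 0.11 and 33 of the 36 were above 0, beside 0.04 and 164 of the 266. The 164 include let-7a-5p and miR-199b-5p, which were unchanged without that pool. The miRNAs of the cluster are transcribed together and were chosen as a list with earlier results of these data known, so they are described by counts without a test.

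The largest differences in the cluster lay in miRNAs that were low in control pool 3. miR-376a-3p gave 7.54, 7.50 and 5.74 in control and 7.66, 7.67 and 7.32 in myopic sclera, a change of 0.63 ± 0.55 (SE; 95% interval -0.79 to 2.04, limma adjusted p = 0.879). miR-136-5p, whose hairpin lies antisense within Rtl1, a retrotransposon-derived gene, gave 8.19, 8.08 and 6.95 in control and 8.37, 8.54 and 8.12 in myopic sclera. Its change was 0.60 ± 0.38 (SE; 95% interval -0.38 to 1.58, limma adjusted p = 0.879). Without control pool 3 the changes of these 2 miRNAs were 0.03 and 0.21 log2 units.

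**Figure D4:**
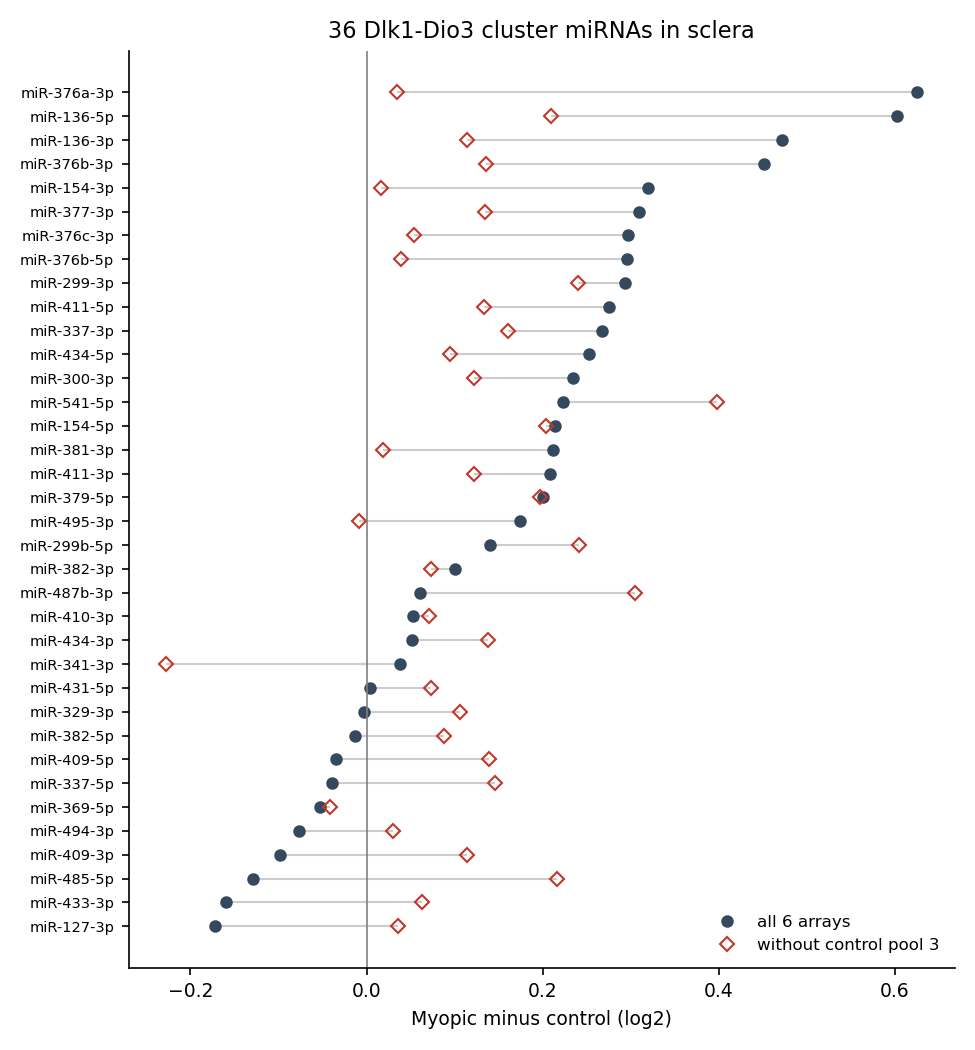
Change in sclera (myopic minus control, log2) of the 36 Dlk1-Dio3 cluster miRNAs detected on all 6 arrays, with all arrays (filled circles) and without control pool 3 (open diamonds). Of the 36, 26 lie above 0 with all arrays and 33 without that pool, and the largest values shrink most.

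The other miRNAs with the largest positive changes were also low in control pool 3. Besides the cluster members miR-136-3p and miR-376b-3p, the rule for changes above 0 in all 3 pairs named miR-193-3p, miR-101a-3p, miR-101b-3p and miR-142-3p, a leukocyte miRNA. Their changes were 0.51, 0.39, 0.49 and 0.43 log2 units, with unadjusted limma p between 0.206 and 0.331. Control pool 3 was the lowest array for each, at 6.98, 8.19, 5.09 and 6.65 log2 units. Without it their changes were 0.06, 0.01, 0.06 and 0.11.

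The pigment-cell miRNAs miR-211-5p and miR-204-5p both had lower means in myopic than in control sclera. miR-211-5p, expressed with Trpm1 in melanocytes and the retinal pigment epithelium, gave 11.02, 11.07 and 11.48 in control pools and 10.46, 10.46 and 10.86 in myopic pools. The groups did not overlap, and the change was -0.60 ± 0.19 (SE; 95% interval -1.09 to -0.10, limma adjusted p = 0.879), a level 1.51-fold lower. miR-204-5p, which regulates epithelial differentiation in the pigment epithelium and the lens, gave 12.36, 12.60 and 13.42 in control and 11.99, 11.86 and 12.60 in myopic sclera. Its groups met at 12.60, and the change was -0.64 ± 0.36 (SE; 95% interval -1.58 to 0.29, limma adjusted p = 0.879). Both were lower in each of the 3 pairs, and without control pool 3 their changes were -0.45 and -0.33. Probes of miRNAs that differ at 1 base may share signal, and how far these 2 do was not tested. Retina carries both miRNAs as well, and in control pools sclera minus retina was -1.16 log2 units for miR-211-5p, which was called lower in sclera, and -0.45 for miR-204-5p, which was not called.

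The summed scaled signal of these 2 miRNAs was 7164, 7528 and 11686 in control and 5266, 5096 and 7502 in myopic pools. Each myopic pool was below its same-numbered control, although myopic pool 3 lay above control pool 1. The part of pigment cells or retina left on the dissected sclera in this difference was not tested.

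Of the other miRNAs lower at an unadjusted p under 0.05, miR-181a-1-3p had the smallest p. It gave 6.06, 5.92 and 6.36 in control and 5.53, 5.61 and 5.72 in myopic sclera, with no overlap. The change was -0.49 ± 0.14 (SE; 95% interval -0.87 to -0.12, limma adjusted p = 0.879), and it was -0.37 without control pool 3. Its hairpin partner miR-181a-5p was 9.06, 9.01 and 9.01 in control and 8.87, 8.87 and 8.90 in myopic sclera, a change of -0.15 log2 units. miR-181b-5p was lower by a like amount, -0.17, also without overlap, whereas miR-181c-5p and miR-181d-5p changed by -0.04 and 0.00. The miR-181 family is expressed in lymphocytes, endothelium and retinal neurons, and all 5 detected members were lower in control sclera than in control retina. Of these 5, 4 were lower and 1 was higher in the myopic mean, and none was called.

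miR-150-5p, a miRNA of mature lymphocytes, gave 5.30, 5.77 and 6.12 in control and 4.86, 5.28 and 5.04 in myopic sclera. The groups did not overlap, although control pool 1 and myopic pool 2 were close, and the change was -0.67 ± 0.25 (SE; 95% interval -1.32 to -0.02, limma adjusted p = 0.879). The values of other leukocyte miRNAs lay both ways. miR-223-3p of granulocytes and monocytes was 9.01, 9.24 and 9.41 in control and 9.22, 9.24 and 9.24 in myopic sclera, and miR-142-3p was higher without overlap. Of the 6 leukocyte miRNAs detected on all 6 arrays, 2 were higher and 4 lower, with a median change of -0.17 log2 units. Without control pool 3, 3 of the 6 were higher and the median was -0.01, and the change of miR-150-5p was -0.47.

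The values of miR-26a-5p, a widely expressed miRNA, were set by its rank. Quantile normalization gives every array the same set of values, so a miRNA with the same rank takes the same value, and miR-26a-5p was 13.04 in all 3 control pools and 12.86 in all 3 myopic pools. The change was -0.18 ± 0.07 (SE; 95% interval -0.36 to -0.01, limma adjusted p = 0.879). Its raw signals were 5581, 6714 and 2418 in control and 4786, 4294 and 3556 in myopic sclera. With arrays scaled to a common 75th percentile instead, the change was -0.06.

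**Figure D5:**
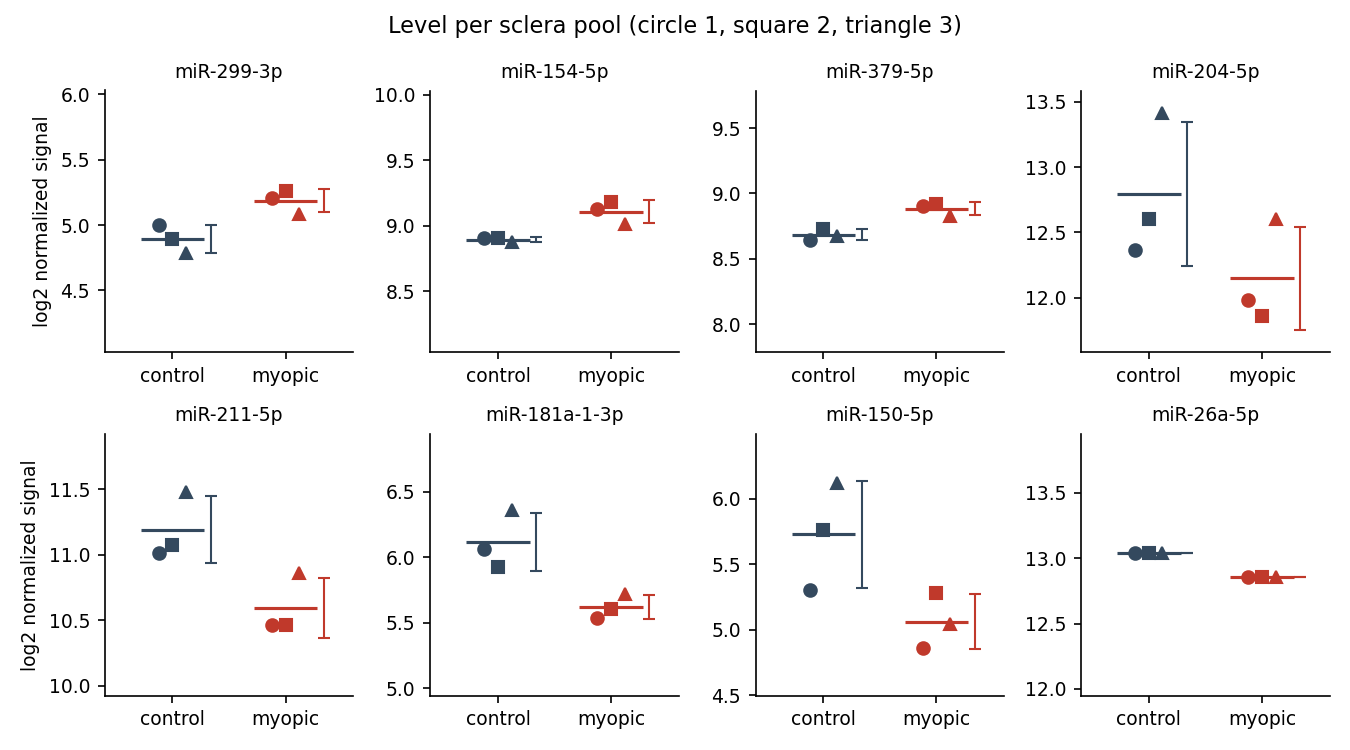
Levels (log2 normalized signal) of the 7 miRNAs with an unadjusted limma p under 0.05 and of miR-204-5p in each control (blue) and myopic (red) sclera pool; symbols give the pool number, horizontal lines the mean of 3 pools and bars the SD. All panels span 2 log2 units, and the groups of the 7 do not overlap although no adjusted p was below 0.879.

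Ranks also set the values of let-7c-5p, of a family that restrains proliferation, and of miR-125b-5p, which is abundant in mesenchymal cells. In normalized values let-7c-5p was 14.55, 15.43 and 14.55 in control and 15.43 in all 3 myopic pools, and miR-125b-5p held the other of the 2 values on each array. Their changes were thus 0.58 and -0.58 log2 units, each with a limma p of 0.086. The raw signals of let-7c-5p were 10684, 14608 and 6849 in control and 10704, 9321 and 8652 in myopic sclera, and those of miR-125b-5p were 11994, 13935 and 8370 against 10195, 8838 and 7732. After 75th percentile scaling the changes were -0.06 for let-7c-5p, where the sign turned, and -0.29 for miR-125b-5p.

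In normalized values the brightest signals were otherwise close between the groups. The 12 highest mean levels belonged to miR-1937b_v16.0 and miR-720, which are array names for transfer RNA fragments, to let-7a, b, c, f and i-5p, and to miR-125b-5p, miR-199a-3p, miR-199b-5p, miR-22-3p and miR-29a-3p. Brightness depends on the probe, so this order is not one of amounts. let-7a-5p was 13.90, 13.90 and 13.69 in control and 13.90 in all 3 myopic pools. miR-199b-5p was 13.42, 13.42 and 13.29 in control and 13.42 in all 3 myopic pools. These repeated values are also set by rank. The changes of let-7a-5p and miR-199b-5p were 0.07 and 0.04 log2 units, and -0.02 and 0.17 after 75th percentile scaling. Over the let-7 family, 12 members were detected on all 6 arrays, and 10 were higher and 2 lower with a median change of 0.06 log2 units, which was -0.03 after 75th percentile scaling.

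Families tied to collagen and matrix were described as groups. Of 28 miRNAs on the list that targets collagen and matrix messages (miR-29, let-7, miR-30 and miR-133), 18 were higher and 10 lower, with a median change of 0.03 log2 units. Without control pool 3, 14 were higher or, for let-7a-5p, unchanged, and the median was -0.01. miR-29a-3p, miR-29b-3p and miR-29c-3p, which repress several collagen messages, changed by 0.12, 0.35 and 0.26 log2 units. miR-29b-3p was 10.93, 10.93 and 9.65 in control and 10.73, 11.02 and 10.81 in myopic sclera, so that the difference lay in control pool 3. Without it the changes of the 3 miR-29 members were -0.07, -0.08 and -0.07. The miR-30 family, linked to connective tissue growth factor, had 7 of 9 members lower and a median of -0.11, and 3 of the 9 were lower without overlap, beside 3.35% of all 328 miRNAs. Without control pool 3 none of the 9 was above 0, where 164 of the 266 miRNAs were (the 164 include the unchanged let-7a-5p and miR-199b-5p).

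None of the mesenchymal miRNAs was called. Of 17 detected on all 6 arrays, 13 were higher and 4 lower, with a median of 0.06 log2 units. Without control pool 3, however, only 9 were higher or, for miR-199b-5p, unchanged, and the median was 0.00. Their summed scaled signal was 42688, 44408 and 38327 in control and 46015, 46392 and 47666 in myopic pools, without overlap. miR-199a-5p, the opposite arm of miR-199a-3p, was 11.41, 11.48 and 11.41 in control and 11.72, 11.62 and 11.56 in myopic sclera. Its change was 0.20 log2 units without overlap (95% interval -0.02 to 0.41, limma adjusted p = 0.879). The list of TGF-β and fibrosis-linked miRNAs, which overlaps the mesenchymal list, had 12 of 19 higher and a median of 0.03.

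Markers of other cell types were given the same test, with 0 calls. miR-451, the defining miRNA of red blood cells, was 9.81, 9.76 and 9.81 in control and 10.00, 10.12 and 9.91 in myopic sclera, a change of 0.21 log2 units without overlap (95% interval -0.02 to 0.45, limma adjusted p = 0.879). The summed scaled signal of the erythroid list (miR-451 and miR-144) was 927, 870 and 876 in control and 1111, 1185 and 1012 in myopic pools. The summed scaled signal of miR-126, an endothelial miRNA, was 3550, 4215 and 4212 in control and 3063, 3323 and 3322 in myopic pools, although its normalized values overlapped. All 5 muscle miRNAs had a mean change above 0, with a median of 0.15, but in the pairs the median was 0.75, 0.00 and -0.12. The 10 retinal and neuronal miRNAs detected on all 6 arrays had a median of -0.09, which was -0.61 without control pool 3, and the 7 of the surface epithelium and lens list had a median of -0.13, which was -0.55 without it. Of the 4 miRNAs of the hypoxia and p53 list, 3 were higher and 1 lower, with a median of 0.18 log2 units, which was 0.09 without control pool 3. The lower 1 was the hypoxia-induced miR-210-3p, with a change of -0.03, which was -0.09 without that pool.

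Over all 328 miRNAs, the 2 groups did not overlap for 24 (7.32%), 13 higher (3.96%) and 11 lower (3.35%) in myopic sclera. Of the 24, 19 were detected on all 6 arrays, and they included 4 Dlk1-Dio3 miRNAs on the higher side, miR-376c-3p being the fourth, and 3 miR-181 and 3 miR-30 members on the lower side. Without control pool 3 the number was 92, 54 of them higher and 38 lower.

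The remaining named miRNAs were lower in all 3 pairs, with 0 calls. miR-132-3p, an activity-regulated neuronal miRNA, was 6.05, 5.95 and 5.87 in control and 5.91, 5.34 and 5.28 in myopic sclera, a change of -0.45 ± 0.20 (SE; 95% interval -0.97 to 0.06, limma adjusted p = 0.879). miR-139-5p was 5.64, 5.91 and 6.37 in control and 5.50, 5.53 and 5.66 in myopic sclera, a change of -0.41, which was -0.21 without control pool 3. Among the miRNAs of this paragraph, miR-669n and miR-1187 had the lowest changes, -0.73 ± 0.42 and -0.56 ± 0.33 (SE), with limma adjusted p-values of 0.879 for both. Both were highest on control pool 3, at 6.42 and 8.16, and without it their changes were -0.37 and -0.23.

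Among the 62 miRNAs detected on only some arrays, the myopic group had the greater number of detections for 30 and the lesser for 24, and the groups tied for 8. None was detected on all 3 arrays of a group and on none of the other. An undetected miRNA takes the floor of the normalized scale, -1 log2 unit, so a single missing value moves a mean by several units, and the median standard error of these miRNAs was 1.94 log2 units. miR-592-5p was detected with raw signals of 11.6 and 7.2 in control pools 1 and 2, and was undetected in control pool 3 and the 3 myopic pools. It reached an adjusted p of 0.019 without control pool 3. miR-1196-5p was detected in all 3 control pools at 17.7, 17.9 and 16.5 and in myopic pool 1 at 14.5, and was undetected in myopic pools 2 and 3. miR-669a_v15.0 had the same pattern at 8.5, 9.7 and 6.3 in control and 6.4 in myopic pool 1. miR-466c-5p_v15.0 was detected only in control pools 1 and 3, at 9.8 and 8.4. No fold is given for any of these, since their undetected arrays take the floor of the scale. The lowest detected signals of the sclera arrays ran from 2.4 to 3.3.

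The response of sclera was set against that of retina in a single fit of all 12 arrays. The difference between the tissues' changes passed the thresholds for 1 of 443 miRNAs (0.226%), miR-145-5p, a smooth muscle and mesenchymal miRNA. In sclera it was 7.03, 6.94 and 7.58 in control and 6.95, 6.98 and 6.75 in myopic pools. In retina it was 2.04, 2.75 and 3.75 in control pools and undetected in all 3 myopic pools. The change in sclera minus that in retina was 3.56 ± 0.52 log2 units (SE; limma adjusted p = 0.030), and with the pool number as a block the adjusted p was 0.067, so that 0 of 443 were called. The difference varied with the processing. With the floor at each array's lowest detected signal it was 1.07 (limma adjusted p = 0.349), and with normexp background correction -0.08 (adjusted p = 0.684). With the authors' processed values it was 3.12 (adjusted p = 0.213). It was 3.28 with 75th percentile scaling (adjusted p = 0.0012) and 3.61 without normalization between arrays (adjusted p = 0.0026). No difference between the tissues is drawn from it. The spread of changes over the 246 miRNAs detected on all 12 arrays was 0.22 (SD) log2 units in sclera and 0.59 in retina.

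A list chosen by the study on the retina arrays was looked at in sclera. Of 37 names listed as higher in myopic retina, 6 were detected in sclera, with a median change of 0.10 log2 units, and of 16 names listed as lower, 13 were detected, with a median of -0.01. All 13 were higher in control sclera than in control retina by the limma test, where 23.0% of all 443 miRNAs were. The 13 were kept because they were detected in sclera. The 443 include 115 detected in retina and not in sclera, so their share is not a like comparison. None of the 19 was called, and none reached an unadjusted p under 0.05. miR-143-3p, the cluster partner of miR-145-5p, was 9.13, 9.30 and 8.65 in control and 9.18, 9.06 and 8.92 in myopic sclera. miR-669n, listed as higher in myopic retina, had the lowest change in sclera among miRNAs detected on all 6 arrays, -0.73.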

How the data were processed

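Each Agilent mouse miRNA array was hybridized with Cy3-labeled total RNA. The deposited scanner files (Agilent Feature Extraction 11.0.1.1 and build mm9 per the file headers) hold intensity values per spot, among them the total gene signal that the authors' software summed over the probes of a miRNA, and detection flags. Undetected miRNAs are listed at 0.1. The authors also deposited quantile-normalized log2 values made in Partek 6.6 per the labels, which served as an alternative. Their table covered all 328 miRNAs and correlated with the values computed here at 0.9998 over the sclera arrays. Its column medians were all 5.63. No column of comparisons by the authors was used.

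Here, total gene signals were floored at 0.5, quantile-normalized over all 12 arrays and taken to log2. A miRNA was detected where its signal in any probe exceeded 3 times its error. Myopic and control sclera were compared by linear models and moderated tests (lmFit, eBayes; limma 3.58.1 under R 4.3.3) on the 6 sclera arrays, with Benjamini-Hochberg adjustment over 328 miRNAs. A call needed an adjusted p under 0.05 and a 2-fold change. The difference between tissues used all 12 arrays and 443 miRNAs. The number of arrays limits the precision. Fits were tested on simulated data.

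The methods named ANOVA on these log2 values, and the sclera arrays were fitted alone because retina pools spread more. Alternatives were other scalings, floors, background corrections, filters, array weights, a replicate block and leaving out each array. miRNAs were named by rule: the 8 largest changes per direction that had the same sign in all 3 pairs and were detected on all 6 arrays, any with an unadjusted p under 0.05 and 2-fold, the 8 smallest p-values, the 12 brightest, any detected in only 1 group on all its arrays, list members, and any called in an alternative. Members and lists were chosen with earlier results of these data known, and the miRNAs of the retinal list were chosen by the study on the retina arrays. Same-numbered control and myopic arrays carry the same mouse identifier in the labels and share a slide. The deviations of the 3 sclera pairs from their group means correlated at -0.14, -0.16 and -0.0015 over the 246 miRNAs detected on all 12 arrays. Over the 266 detected on all 6 sclera arrays they correlated at -0.34, -0.078 and -0.084. p-values measure the spread between pools.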

Additional observations from a re-analysis of the deposited data

Results flagged for a closer look

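The change of miR-145-5p in sclera minus its change in retina was 3.56 log2 units, which passed the thresholds in the reported fit of the difference (limma adjusted p = 0.030). The call was lost with the authors' processed values, the floor at the lowest detected signal, normexp, processed spot signals and the replicate block, and on leaving out some arrays. The retinal change rests on 3 myopic retina arrays on which the miRNA was undetected and took the floor of the scale. With the floor at each array's lowest detected signal the difference was 1.07 (limma adjusted p = 0.349), with normexp background correction it was -0.08 (adjusted p = 0.684), and with 75th percentile scaling it was 3.28 (adjusted p = 0.0012). In sclera itself the change was -0.29 log2 units and was not called.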

How the results depend on the processing

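The count of calls in sclera was 0 in every alternative except array weights and leaving out an array. It was 1 (miR-592-5p) with array weights and ran from 0 to 2 on leaving out an array. Those calls were miR-592-5p without control pool 3 and miR-466c-5p_v15.0 without control pool 2. Without myopic pool 1 they were miR-1196-5p and miR-669a_v15.0. All these miRNAs were undetected on some sclera arrays. The number at an unadjusted p under 0.05, 7 in the reported fit, was 3 with 75th percentile scaling, 12 with normexp, 11 when all miRNAs detected on any of 12 arrays were tested, 13 in the fit of all 12 arrays and 49 with array weights, and from 0 to 29 on leaving out an array (0 without myopic pool 2, 12 without control pool 2, 29 without control pool 3). The number of intervals inside 2-fold, 205, was 15 without normalization between arrays, 258 with normexp and 238 with array weights. It ran from 169 to 228 on leaving out an array. Under the replicate block, the pool number as a block, sclera had 0 calls, 5 miRNAs at an unadjusted p under 0.05 and 188 intervals inside 2-fold, and it changed no other call than that of miR-145-5p between tissues. The count of miRNAs whose groups do not overlap, an alternative chosen after seeing the data, was 35 with 75th percentile scaling and from 30 to 92 on leaving out an array, where fewer arrays make overlap rarer. The tissue difference had 0 calls with the authors' processed values, the floor at the lowest detected signal, normexp, processed spot signals and the replicate block, 156 with array weights, and from 0 to 111 on leaving out an array (111 without control retina 1, 9 without myopic retina 3, 2 without control sclera 2 or 3). miR-26a-5p reversed to 0.024 with normexp and miR-592-5p to 1.17 with processed spot signals. Without moderation of the spread, miR-26a-5p, which has no spread within groups after normalization, took an adjusted p of 1.1e-53 with a change under 2-fold. The cause of these shifts was not tested. Missing detections limit what the 62 partly detected miRNAs can show.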
